A study of Mus musculus with 8 samples.

Results

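Gli1, Gli2 and Gli3 are the transcription factors at the end of the Hedgehog pathway, and Sufu, Kif7 and Spop are proteins that act on them directly. These 6 genes were taken by symbol from a table of 41709 gene symbols, and all 6 were present and passed the filter on low values that left 13596 genes for testing. The data are RNA sequencing of 8 whole mouse embryos at embryonic day 9.5, the offspring of SmoK399A/+ females and SmoK399A/+ males. The wild-type group (WT) held 4 Smo+/+ embryos and the mutant group 4 SmoK399A/K399A embryos, each embryo sequenced on its own. K399A is an amino acid substitution in Smoothened (Smo), the membrane protein upstream of the Gli factors, and it was present in every cell of a mutant embryo. Several litters were used, the labels tie no embryo to a litter, and the strain is not stated in the labels. Between 60.0 and 61.5 M reads (M, mega) stood behind each library, as recovered from the steps of the values. The labels do not say more on how separate the embryos of a group were, so p-values measure the spread between these embryos.

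In vertebrates the Hedgehog signal is passed through the primary cilium. Without a signal, Gli3 and to a lesser extent Gli2 are phosphorylated and cut to repressors, while with a signal Smo lets the full-length proteins act as activators. Gli2 is the chief activator and Gli3 the chief repressor in the embryo. Gli1 is an activator only, is itself switched on by Gli activity, and so its transcript serves as a readout of the pathway. Sufu binds full-length Gli proteins and holds them inactive, Kif7 is a kinesin that organises the tip of the cilium where Sufu and Gli meet, and Spop is the adaptor through which a Cul3 ubiquitin ligase destroys full-length Gli2 and Gli3.

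Some libraries stood apart in transcripts other than the 6 genes. The 9 host genes of small nucleolar RNAs summed to 744.6 to 892.3 TPM over WT embryos, to 699.3 and 834.9 TPM in mutants 1 and 2 and to only 396.3 and 374.1 TPM in mutants 3 and 4. All 9 had lower means in mutants, against 62.3% of all genes tested (49.4% with median-ratio scaling), the share beside which the counts below are also to be read. Whether these host genes reflect RNA quality or the state of the embryo was not tested. The 6 neural progenitor genes, none at 0, summed to 429.8 to 594.4 TPM over WT embryos and to 277.0 (mutant 1), 519.4 (mutant 2), 395.4 (mutant 3) and 389.2 TPM (mutant 4), and all 6 had lower means. The 6 genes of mesenchyme and somites summed to 302.1 to 423.8 TPM over WT embryos and 315.1 to 396.4 TPM over mutants, with 3 of 6 means lower. All 15 yolk sac endoderm genes had higher means in mutants, their sum being 18.01 to 277.6 TPM over WT embryos and 1455 (mutant 1), 905.8 (mutant 2), 243.7 (mutant 3) and 154.9 TPM (mutant 4); of these genes only Fga was at 0, in WT 1. Of 8 genes of trophoblast and decidua, 5 were tested and 4 had higher means, the sum running from 15.7 to 35.4 TPM over WT embryos and from 21.7 to 330.9 TPM over mutants, and Tpbpa was at 0 in every WT embryo, Prl7d1 in WT 2, WT 4 and mutant 1, and Gcm1 in mutant 3. For heart muscle 5 of 6 means were higher, with sums of 674.6 to 944.3 and 993.2 to 2024 TPM, and for primitive red cells 5 of 5, with sums of 14290 to 49240 and 20370 to 51870 TPM. Among the yolk sac genes, Fga reached 1 TPM in WT only in WT 3, and so passed the filter on low values mainly through mutants. All these lists were written with earlier results of these data known, so their directions are no independent evidence. The part of these measures in the results on the 6 genes was not tested, and values without mutants 3 and 4 are given beside the results. In whole embryos, fewer cells of a type and less RNA per cell cannot be told apart.

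Levels are given in TPM, a unit corrected for the length of a gene and the depth of its library. For the 6 genes the values matched the length of all annotated exons merged, which need not be that of the transcripts present. A misfit of that length would be alike in every embryo, so the tests below on the order of genes cannot detect it. Spop was the most abundant of the 6, at 93.5 ± 6.92 TPM (SD, n = 8), followed by Gli3 at 51.6 ± 5.31, Sufu at 41.6 ± 4.35, Gli2 at 31.5 ± 2.70, Gli1 at 24.5 ± 6.67 and Kif7 at 19.1 ± 2.11 TPM. The same order of means was found within WT and within mutants. Within an embryo, Spop exceeded Gli3, Gli3 exceeded Sufu, Sufu exceeded Gli2 and Gli2 exceeded Gli1 in 8 of 8 embryos (exact sign-flip test, two-sided, p = 0.0078 for each, the smallest that 8 embryos allow, adjusted p = 0.0098 over 5 neighbouring pairs). Gli1 exceeded Kif7 in 7 of 8 embryos, the exception being mutant 3, and these neighbours did not differ beyond their spread (exact p = 0.0547, adjusted p = 0.0547). Sufu stood at a nearly fixed level above Gli2, 1.32-fold with an SD of 0.047 on the log2 scale, whereas the log2 ratio of Gli2 to Gli1 had an SD of 0.51.

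The sequence before the start of each gene was looked up in RefSeq (GRCm38.p6), where 5 of the 6 genes were matched, and Gli1 was not. Gli2 and Sufu are shown because theirs was the one pair of transcripts whose correlation across embryos passed the test, as described below. Each line gives the 250 bases before the annotated start, read 5′ to 3′, and capitals mark every match to the GLI core GGGTGGT, the GC box GGGCGG or the CCAAT box on either strand.

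Gli2, chr1:119053620-119053869, minus strand: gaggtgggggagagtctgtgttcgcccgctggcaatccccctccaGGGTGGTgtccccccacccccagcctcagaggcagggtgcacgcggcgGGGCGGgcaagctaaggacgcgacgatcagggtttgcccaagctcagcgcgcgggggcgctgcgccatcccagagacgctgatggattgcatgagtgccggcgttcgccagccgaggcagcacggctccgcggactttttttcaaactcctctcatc

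Sufu, chr19:46396646-46396895, plus strand: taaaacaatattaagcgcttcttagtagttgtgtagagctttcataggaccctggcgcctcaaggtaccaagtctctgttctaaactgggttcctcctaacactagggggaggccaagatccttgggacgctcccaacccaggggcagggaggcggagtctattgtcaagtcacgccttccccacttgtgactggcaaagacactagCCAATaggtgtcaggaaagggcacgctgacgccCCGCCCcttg

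The window before Gli2 held 1 match to the GLI core, at position -205 from the start, and 1 GC box at -157. The GLI core was found in 3.92% of the 32851 windows of the same length, the share against which this match is to be read. The window before Sufu held no GLI core, 1 CCAAT box at -43 (33.9% of all windows hold one) and 1 GC box at -10 (32.7%). The longer GLI consensus TGGGTGGTC, of which the core is a part, was in none of the 5 windows and in 0.225% of all. Gli3, Kif7 and Spop held 2, 5 and 5 GC boxes and neither of the other short motifs. A match is a run of letters and says nothing of binding.

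Mutants were set against WT embryos to see whether transcripts of the Gli genes and their direct regulators differ when Smo carries the substitution. None of the 6 passed the test, and Gli1 showed the largest difference. The test was limma on log2(TPM + 1), with p-values adjusted over all 13596 genes by Benjamini-Hochberg, and it called 0 of the 6 members and 0% of all genes tested (smallest adjusted p = 0.203). An unadjusted p under 0.05 was reached by 0 of the 6, against 13.5% of all genes (1842 genes). Groups without overlap were found for 0 of the 6, against 7.46% of all genes. Of the 6 genes, 3 had a lower mean in mutants, Gli1, Kif7 and Spop, against 62.3% of all genes (49.4% with median-ratio scaling, under which the 3 kept their direction). Limma voom on read numbers recovered from the TPM values also called 0 genes, with 2121 at an unadjusted p under 0.05.

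**Figure D1:**
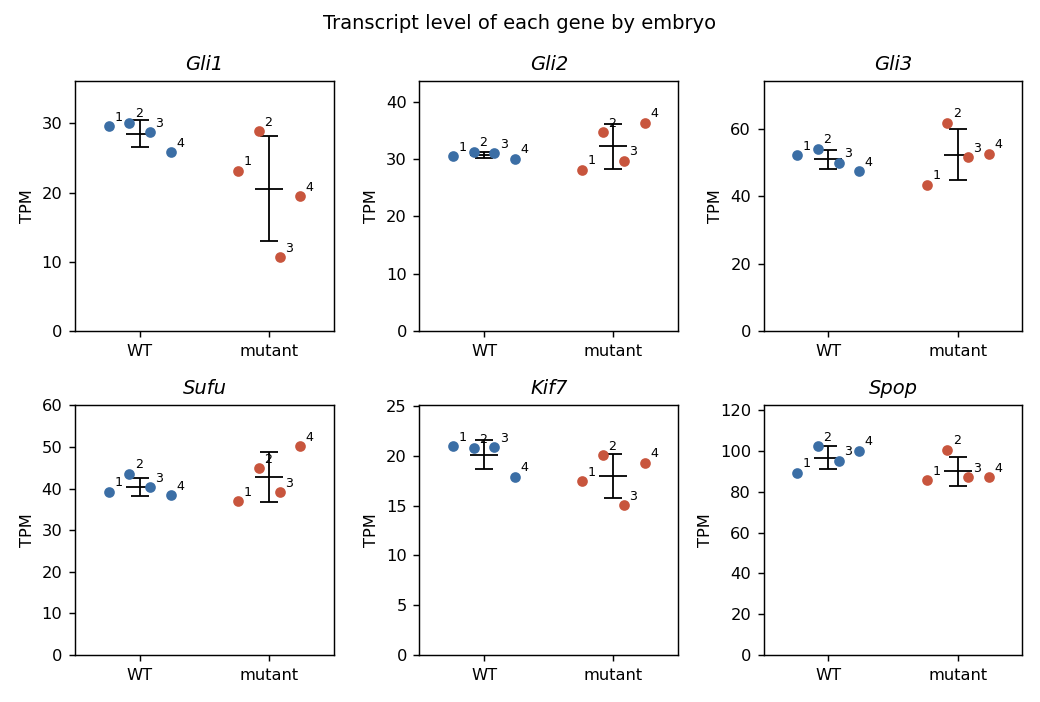
TPM (vertical axis, from 0) of the 6 genes in the 4 WT embryos (blue) and the 4 mutant embryos (red), 1 panel per gene. Small digits are the embryo numbers, and bars give the mean and SD. Gli1 in mutant 3, at 10.7 TPM, lies farthest below its group, and in no panel are the groups separate.

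Gli1 (chromosome 10, 127329882 to 127341974, minus strand, build GRCm38), the transcriptional readout of the pathway, was at 29.5, 30.1, 28.7 and 25.8 TPM in WT 1 to 4. In mutants 1 to 4 it was at 23.2, 28.9, 10.7 and 19.5 TPM. Mutants 1, 3 and 4 lay below every WT embryo, and mutant 2 lay inside the WT range. The group means were 28.5 ± 1.91 TPM (SD, n = 4) and 20.6 ± 7.61 TPM (n = 4), giving a log2 fold change of -0.53 ± 0.24 (SE; limma adjusted p = 0.372; 95% confidence interval -1.07 to 0.0079). The exact permutation test over the 70 assignments of 4 against 4 gave p = 0.0857, two-sided, where 0.0286 is the smallest possible. Without mutant 3 the log2 fold change was -0.26, and without mutants 3 and 4 it was -0.13 (limma adjusted p = 0.606). Gli1 rested on 1067 to 2788 reads per library, for which counting alone gives a coefficient of variation of 1.89% to 3.06%, and the spread between embryos was 6.71% in WT and 37.0% in mutants.

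The 2 mutants with the lowest Gli1, mutants 3 and 4, were those with the low small nucleolar RNA host genes. Neural progenitor transcripts were lowest in mutant 1, where Sox2, one of them, was at 103.4 TPM against 134.7 and 139.6 TPM in mutants 3 and 4. The mutants with the most yolk sac transcripts, 1 and 2, had the highest Gli1 of the mutants. The part of these in the Gli1 values was not tested.

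**Figure D2:**
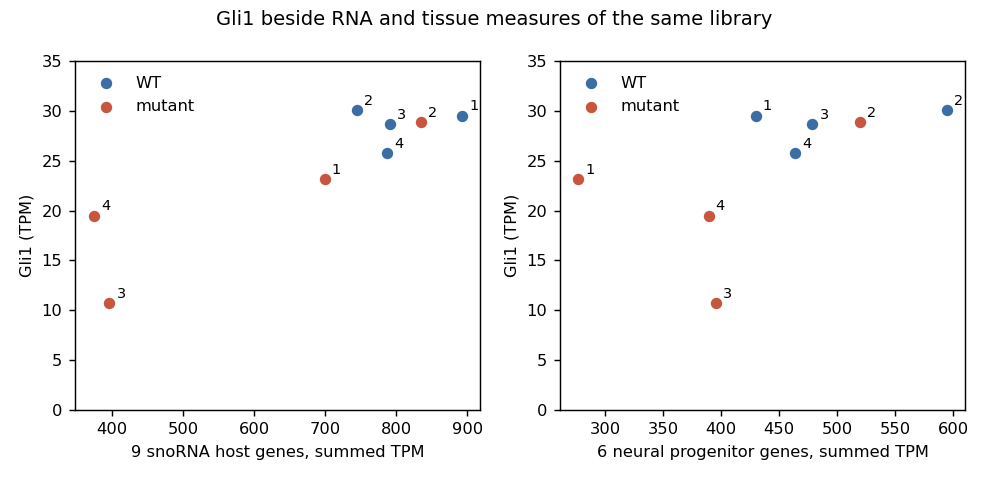
Gli1 TPM (vertical axis) against the summed TPM of 9 small nucleolar RNA host genes (left) and of 6 neural progenitor genes (right) in the same embryo, WT in blue and mutants in red, numbered. Mutants 3 and 4 are low on both axes at left, while at right mutant 1 is lowest for the neural genes and has 23.2 TPM of Gli1.

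Gli2 (chromosome 1, 118834132 to 119053619, minus strand), the main activator, was at 30.5, 31.3, 31.0 and 30.1 TPM in the 4 WT embryos, in number order, while mutants 1 to 4 had 28.1, 34.6, 29.7 and 36.3 TPM. Mutants 1 and 3 lay below and mutants 2 and 4 above all WT embryos, so the mutant values enclosed the WT values. This gave a log2 fold change of 0.06 ± 0.08 (SE; limma adjusted p = 0.748; 0.02 without mutants 3 and 4), with a 95% confidence interval from -0.13 to 0.25. Gli3 (chromosome 13, 15463235 to 15730026, plus strand), the main repressor, was at 52.0, 54.1, 49.9 and 47.4 TPM in the WT embryos, while the mutants had 43.4, 61.7, 51.5 and 52.5 TPM. Mutant 1 was the lowest and mutant 2 the highest of the 8 embryos, and the other mutants fell within the WT range. For Gli3 this gave a log2 fold change of 0.03 ± 0.10 (SE; limma adjusted p = 0.899; interval -0.19 to 0.25). It was 0.03 without mutants 3 and 4, and its sign turned without WT 4 (-0.0021) or without mutant 2 (-0.052).

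Sufu (chromosome 19, 46396896 to 46488804, plus strand), the cytoplasmic inhibitor of the Gli proteins, was at 39.2, 43.6, 40.4 and 38.4 TPM in the WT embryos, while the mutants had 37.0, 44.9, 39.1 and 50.1 TPM. Mutant 4 stood highest and mutant 1 lowest, with the other embryos of both genotypes in between. This gave a log2 fold change of 0.07 ± 0.09 (SE; limma adjusted p = 0.720; interval -0.14 to 0.28), which was -0.0051 without mutant 4 and 0.01 without mutants 3 and 4. Kif7 (chromosome 7, 79698098 to 79715720, minus strand), the ciliary kinesin, was at 21.0, 20.8, 20.9 and 17.9 TPM in the WT embryos, while the mutants had 17.5, 20.1, 15.04 and 19.3 TPM. Mutants 1 and 3 lay below every WT embryo, while mutants 2 and 4 lay between WT 4 and the other WT embryos. This gave a log2 fold change of -0.16 ± 0.10 (SE; limma adjusted p = 0.463; interval -0.38 to 0.06), which was -0.08 without mutant 3 and -0.10 without mutants 3 and 4. Kif7 shares 51 exonic bases (1.11%) with Ticrr on the opposite strand, a gene at up to 23.9 TPM, and without a stated strand setting reads in that stretch could come from either gene.

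Spop (chromosome 11, 95414080 to 95493406, plus strand), the ubiquitin ligase adaptor, was at 89.4, 102.3, 95.2 and 100.1 TPM in the WT embryos, while the mutants had 85.7, 100.7, 87.2 and 87.1 TPM. Mutants 1, 3 and 4 lay below every WT embryo and mutant 2 lay within the WT range, the same placing as for Gli1 but over a far narrower span. This gave a log2 fold change of -0.10 ± 0.07 (SE; limma adjusted p = 0.479; interval -0.25 to 0.05), and -0.06 without mutants 3 and 4.

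The spread between embryos was wider in mutants for all 6 genes. The SD in mutants was 7.2 times that in WT for Gli2, 3.98 times for Gli1, 2.62 times for Gli3, 2.61 times for Sufu, 1.51 times for Kif7 and 1.23 times for Spop. The median of this ratio over all genes tested was 1.82, so a wider spread in mutants was common, and 13.9% of genes had a ratio above that of Gli1. The unusually tight WT values of Gli2, with a coefficient of variation of 1.76% against 12.1% in mutants, made its ratio the largest of the 6.

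Gli1 was also set against the other 5 genes within the same embryo, a choice made after the values were seen, and the groups were separate for 3 of the 5, Gli2, Gli3 and Sufu. These 3 ratios share Gli1, and Gli2 and Sufu rose and fell together (Pearson r = 0.955), so they are not separate evidence. Gli1 relative to Gli2 was 0.970, 0.961, 0.924 and 0.857 in the WT embryos, while mutants 1 to 4 had 0.823, 0.833, 0.360 and 0.537. Every mutant lay below every WT embryo, also mutant 2, whose Gli1 level itself was within the WT range. Gli1 relative to Gli3 was 0.568, 0.556, 0.574 and 0.543 among WT embryos against 0.533, 0.467, 0.208 and 0.371 among mutants, again without overlap. Gli1 relative to Sufu was 0.753, 0.690, 0.710 and 0.671 among WT embryos against 0.625, 0.643, 0.274 and 0.389 among mutants. With any gene in place of Gli1, such a separation with lower mutants was found for 3.37% of genes relative to Gli2, 1.92% relative to Gli3 and 2.89% relative to Sufu. These ratios are given as values, with no test, and mutants 1 and 2 alone stood only 0.16 (Gli2), 0.17 (Gli3) and 0.15 (Sufu) below WT on the log2 scale, against 0.62, 0.59 and 0.63 with all mutants.

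**Figure D3:**
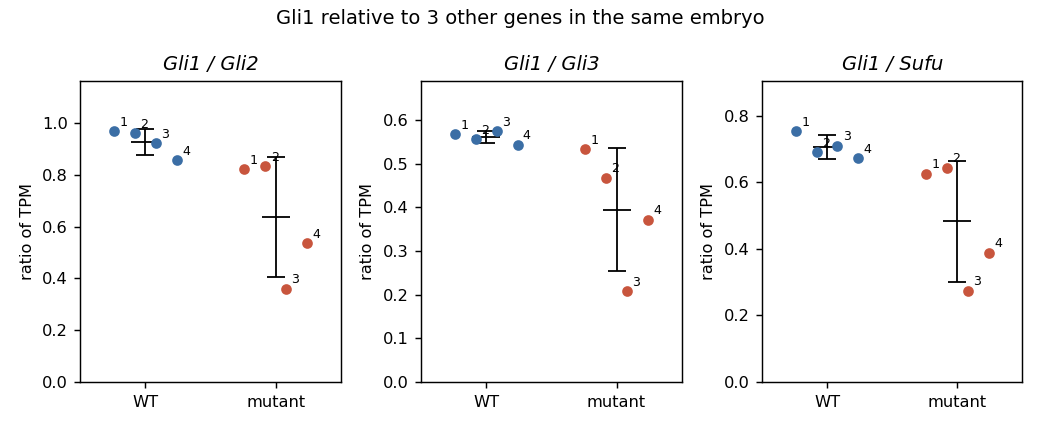
Ratio of Gli1 TPM to Gli2, Gli3 and Sufu TPM (vertical axis, from 0) in each WT (blue) and mutant (red) embryo, with the mean and SD. In each panel the 4 mutants lie below the 4 WT embryos, and mutants 3 and 4 lie below mutants 1 and 2.

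Relative to Kif7 and Spop, Gli1 did not separate the groups. Gli1 relative to Kif7 was 1.41, 1.45, 1.37 and 1.44 among WT embryos, while the mutants had 1.33, 1.44, 0.712 and 1.01, with mutant 2 above WT 1 and WT 3. Gli1 relative to Spop was 0.330, 0.294, 0.301 and 0.257 among WT embryos, while the mutants had 0.270, 0.286, 0.123 and 0.224, with mutants 1 and 2 above WT 4. The groups also overlapped in the ratios without Gli1. Gli2 relative to Gli3, the chief activator against the chief repressor at the transcript level, was 0.605 ± 0.027 (SD, n = 4) for WT and 0.619 ± 0.061 for mutants. Sufu relative to Gli2 was 1.31 ± 0.053 and 1.33 ± 0.037. Kif7 relative to Gli2 was 0.656 ± 0.041 and 0.560 ± 0.051, with mutant 1, at 0.621, above WT 4, at 0.596. Processing of Gli2 and Gli3 to repressors happens to the protein and was not measured.

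The 6 genes were also compared with each other across the 8 embryos. Of 18 pairs examined, the 15 among the 6 genes and Gli1 with feedback targets, only Gli2 and Sufu passed (Pearson r = 0.955, exact permutation p = 7.44e-05, adjusted p = 0.0013; Spearman rho = 0.976, exact p = 0.0004, adjusted p = 0.0071). Their highest values were in mutants 4 and 2 and their lowest in mutant 1. Mutants 2 and 4 were also the mutants with Xist, a transcript of female embryos (91.9 and 22.4 TPM, against 0.02 in mutants 1 and 3). Among WT embryos Xist was present in WT 1 and WT 3 (63.8 and 51.4 TPM), and Gli2 and Sufu did not divide along it. The part of sex in this correlation was not tested. Centring each genotype left r at 0.952. Without mutants 2 and 4, the embryos farthest from the median of Gli2, r was 0.841 over 6 embryos and no longer passed (exact p = 0.0472, adjusted p = 0.212), so the call was lost without those embryos, with fewer embryos in the test. Within a genotype there were only 4 embryos, too few for a value of its own.

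Gli1 and Kif7 followed next, at r = 0.879 (exact permutation p = 0.0101, adjusted p = 0.0906; rho = 0.810, exact p = 0.0218, adjusted p = 0.098), with both genes lowest in mutant 3, and r was 0.949 without mutants 3 and 4 (exact p = 0.0153, adjusted p = 0.138). Gli2 and Gli3 gave r = 0.718 (exact permutation p = 0.0440, adjusted p = 0.264). Gli1 gave r = 0.112 with Gli2 (exact permutation p = 0.793; rho = 0.333), 0.149 with Gli3 (exact permutation p = 0.645; rho = 0.452) and 0.062 with Sufu (exact permutation p = 0.887; rho = 0.262). Without mutants 3 and 4 these were r = 0.691, 0.782 and 0.742 (exact permutation p = 0.156, 0.0708 and 0.0889), none past the threshold, so the low values with all embryos depend on mutants 3 and 4. With the feedback targets Ptch1 and Hhip, Gli1 gave r = 0.556 and 0.528 (exact permutation p = 0.149 and 0.195), neither of which passed, and with Hhip the sign turned to -0.760 without mutants 3 and 4.

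**Figure D4:**
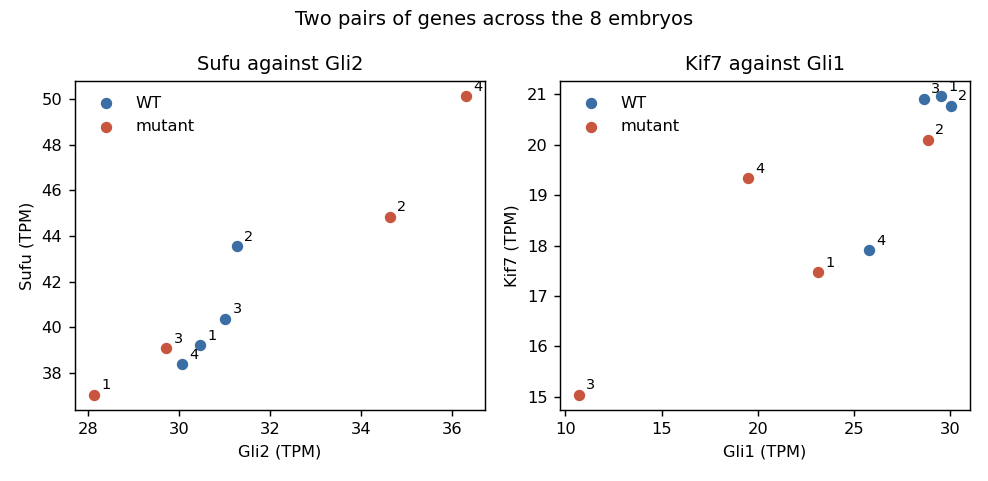
Sufu against Gli2 (left) and Kif7 against Gli1 (right), in TPM, for the 4 WT (blue) and 4 mutant (red) embryos, numbered; the axes do not start at 0. Sufu and Gli2 lie near 1 line from mutant 1 to mutant 4 (r = 0.955), and mutant 3 is lowest for both Kif7 and Gli1.

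The tested genes whose pattern over the 8 embryos was most like each of the 6, by Pearson r on log2(TPM + 1) as for the pairs above, are given as a description. For Gli1 these were Pimreg (r = 0.995), Rfc5 (0.988), Haus2, Cep63 and Phldb1 (each 0.987); Rfc5 is a subunit of the replication clamp loader, and Haus2 belongs to the augmin complex of the spindle. Pimreg was at 177.9, 178.6, 174.0 and 171.7 TPM in the WT embryos and the mutants had 160.7, 172.9, 126.8 and 156.2 TPM, so that it shared with Gli1 the lowest value in mutant 3, though over a narrower span. Kif7 ranked 800 of 13595 in likeness to Gli1 and Ptch1 5149. For Gli2 the nearest were Polr2a (r = 0.984), the large subunit of RNA polymerase II, Thumpd1 (0.981) and Rere (0.972), and Sufu ranked 13. For Sufu they were Wasf1 (0.994), Cpsf3 (0.976) and Dhx38 (0.975), with Gli2 at rank 26. For Gli3 they were D16Ertd472e (0.955), Pde3b (0.953) and Sirt1 (0.941), and for Kif7 Mrps5 (0.983), Grk6 (0.975) and Tsr2 (0.971). Spop was nearest to Sox2ot (0.990), a non-coding transcript around Sox2, Ppm1e (0.987) and Chst10 (0.977). All points share the library.

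Among the genes that act on Gli proteins, every list was without a gene that passed the test. Of 11 kinases and regulatory subunits that prime Gli2 and Gli3 for processing, 5 had lower means and 6 higher (3 and 8 with median-ratio scaling), with a median log2 fold change of 0.01 against -0.04 over all genes. Those with the smallest p were Csnk1e (72.8 ± 4.15 TPM for WT, SD, n = 4, and 66.2 ± 6.38 for mutants, the order kept below), Prkaca, the catalytic subunit of protein kinase A (162.6 ± 7.26 and 171.8 ± 4.55), Gsk3a (143.8 ± 5.43 and 135.6 ± 6.90) and Prkar2a (40.9 ± 8.25 and 34.9 ± 6.39). Of 10 tested genes of ubiquitin ligases and turnover, 6 had lower means (4 with median-ratio scaling), with a median of -0.03 that turned to 0.02 with that scaling. Both counts are to be read beside the 62.3% of all genes that were lower (49.4% with that scaling), a share near that of the turnover genes. Cul3, the scaffold that works with Spop, was at 105.3 ± 4.36 and 110.6 ± 3.08 TPM, Kctd11 at 12.1 ± 0.756 and 13.4 ± 1.03, Rbx1, the RING subunit, at 92.0 ± 1.75 and 87.4 ± 4.08, and Cul1 at 199.4 ± 8.07 and 186.4 ± 16.5. The smallest limma adjusted p was 0.412 among the kinases and 0.467 among the turnover genes.

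Of 14 cofactors, transport receptors and kinases that modulate Gli activity, 9 had lower means (5 with median-ratio scaling), with a median of -0.03 that likewise turned to 0.02. Hdac1 was at 227.8 ± 6.65 and 212.1 ± 14.4 TPM, Zic1 at 48.2 ± 8.58 and 40.2 ± 11.8, and Ulk3 at 5.95 ± 0.733 and 5.50 ± 1.92. Of 18 genes of the cilium and membrane between Smo and Gli, 16 had lower means (13 with median-ratio scaling), against 62.3% of all genes lower (49.4% with that scaling), by a median log2 fold change of -0.07 that was -0.026 with median-ratio scaling. Arrb2, a beta-arrestin, was at 44.6 ± 2.67 and 37.6 ± 4.95 TPM (limma adjusted p = 0.328), Ift27 of the intraflagellar transport complex at 38.2 ± 2.77 and 33.9 ± 1.42 (adjusted p = 0.329), Ift88 at 13.1 ± 0.867 and 11.4 ± 2.25, and Iqce at 6.64 ± 0.374 and 5.60 ± 1.35. Smo itself was at 140.2 ± 6.29 and 140.7 ± 12.5 TPM; a substitution need not alter the transcript level, so this is no check of the genotypes.

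The targets of Gli activity were compared beside Gli1. Among feedback genes, which like Gli1 are switched on by the pathway, Ptch1 and Hhip had lower means, under every scaling tried, and neither passed. Lower means were found for 62.3% of all genes (49.4% with median-ratio scaling). Ptch1 and Hhip were both lowest of all embryos in mutant 3, which every scaling kept. Without mutant 3 the mean of Hhip lay above that of WT and the mean of Ptch1 just below it, with no test given here. Ptch1, the main receptor, was at 31.0, 37.3, 42.05 and 34.4 TPM in the WT embryos, while the mutants had 29.7, 36.3, 25.9 and 42.07 TPM. In mutant 4, Ptch1 was thus level with the highest WT embryo although Gli1 there was at 19.5 TPM, and Gli1 relative to Ptch1 was 0.463 in mutant 4 and 0.413 in mutant 3, against 0.681 to 0.953 in WT and 0.779 and 0.795 in mutants 1 and 2. Hhip, which binds the ligand, was highest in mutant 1, at 4.08 TPM, and lowest in mutant 3, at 1.91 TPM. Mutants 2 and 4, at 2.48 and 2.83 TPM, lay within the WT range of 2.45 to 3.25 TPM.

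All 7 ventral neural genes listed as targets had lower means, under every scaling tried, against 62.3% of all genes (49.4% with median-ratio scaling). Their median log2 fold change was -0.35 as reported, and none passed over all genes. Nkx2-1 (6.85 ± 2.04 TPM, SD, n = 4, and 2.98 ± 1.45; limma adjusted p = 0.281) was the only 1 of the 7 whose groups did not overlap, against 7.46% of all genes, Olig2 was at 21.6 ± 5.54 and 11.0 ± 6.23 (adjusted p = 0.344) and Nkx2-2 at 4.00 ± 1.08 and 2.23 ± 0.653 (adjusted p = 0.300). Foxa2 of the floor plate (12.0 ± 3.14 and 10.6 ± 3.74), Nkx2-9 (22.1 ± 9.80 and 17.7 ± 9.58), Nkx6-1 (21.9 ± 6.80 and 18.2 ± 7.51) and Nkx6-2 (16.6 ± 5.35 and 14.1 ± 5.71) had unadjusted p above 0.05. Each of these was lowest of all embryos in mutant 3. Foxa2 was at 5.31 TPM there, while mutants 1, 2 and 4 had 11.9, 11.1 and 14.05 TPM, within the WT range of 9.04 to 15.8 TPM. Every scaling kept mutant 3. Without mutant 3 the mean of Foxa2 lay above that of WT, so the lower means of all 7 rest in part on that embryo. No test of the list without it is given here. Olig2 was lowest in mutant 1, at 2.45 TPM, not in mutant 3, which had the least Gli1 and 11.2 TPM of Olig2. The 6 neural progenitor markers were also all lower on average, as given above, and their part in this list was not tested. The list was written with earlier results of these libraries known and is no independent evidence of direction.

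In the mesoderm the same direction was not seen. Of 7 sclerotome, gut and pharyngeal mesenchyme genes that need Hedgehog, 4 had higher means and 3 lower, with a median of 0.03, and with median-ratio scaling 4 higher and 2 lower, Nkx3-2 then having no value. Of all genes, 62.3% were lower (49.4% with that scaling). Foxf1 was at 23.9 ± 4.11 TPM (SD, n = 4) and 32.8 ± 12.6, Pax1 at 5.71 ± 3.78 and 6.36 ± 2.49, Nkx3-2 at 0.812 ± 0.286 and 1.16 ± 0.453, Foxc2 at 24.2 ± 2.87 and 25.6 ± 8.83, Foxf2 at 7.62 ± 1.79 and 6.35 ± 1.72, Pax9 at 2.95 ± 0.648 and 2.93 ± 0.663 and Foxl1 at 1.97 ± 0.533 and 1.97 ± 1.14. Foxf1 was highest in mutants 4 and 1, at 47.8 and 38.4 TPM, and in mutants 2 and 3 was within the WT range of 20.05 to 29.2 TPM. Whether the mesoderm list and the ventral neural list differ was not tested.

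Of 5 limb bud genes that Gli3 repressor holds down, Hand2, which acts in limb and heart, was at 49.2, 31.8, 34.8 and 43.3 TPM in the WT embryos and at 67.2, 52.5, 57.3 and 45.1 TPM among mutants (log2 fold change 0.48 ± 0.15, SE; limma adjusted p = 0.299). Only mutant 4 lay within the WT range. The heart muscle genes given above also summed higher in mutants and were highest in mutant 1 (2024 TPM), as Hand2 was, and their part in Hand2 was not tested. In whole embryos the tissue behind the transcripts of these 5 genes is not known. The Hoxd genes had lower means, Hoxd12 at 5.25 ± 3.50 and 1.06 ± 1.16 TPM (limma adjusted p = 0.310), Hoxd11 at 10.4 ± 2.80 and 6.13 ± 3.85 and Hoxd13 at 14.2 ± 6.58 and 7.6 ± 5.91, each lowest in mutants 1 and 4 and with wide spreads in both groups. Grem1 was at 6.12 ± 0.909 and 6.37 ± 0.667 TPM. Of 5 genes that Hedgehog signalling lowers, 4 had lower means (4 with median-ratio scaling), against 62.3% of all genes (49.4% with that scaling). These were Boc (32.2 ± 3.50 and 26.6 ± 6.40), Pax3 (19.4 ± 2.13 and 15.5 ± 4.17), Gas1 (170.6 ± 9.79 and 162.3 ± 26.1) and Pax7 (6.96 ± 1.42 and 6.49 ± 1.63). Cdon was at 40.9 ± 2.53 and 44.7 ± 5.20 TPM. The part of the lower neural progenitor markers in this list was not tested. The cell cycle targets Ccnd1 (256 ± 26.3 and 238.8 ± 30.7), Ccnd2 (248.5 ± 29.6 and 237.2 ± 39.4) and Mycn (146.2 ± 14.6 and 153.3 ± 24.8) had log2 fold changes between -0.10 and 0.06.

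**Figure D5:**
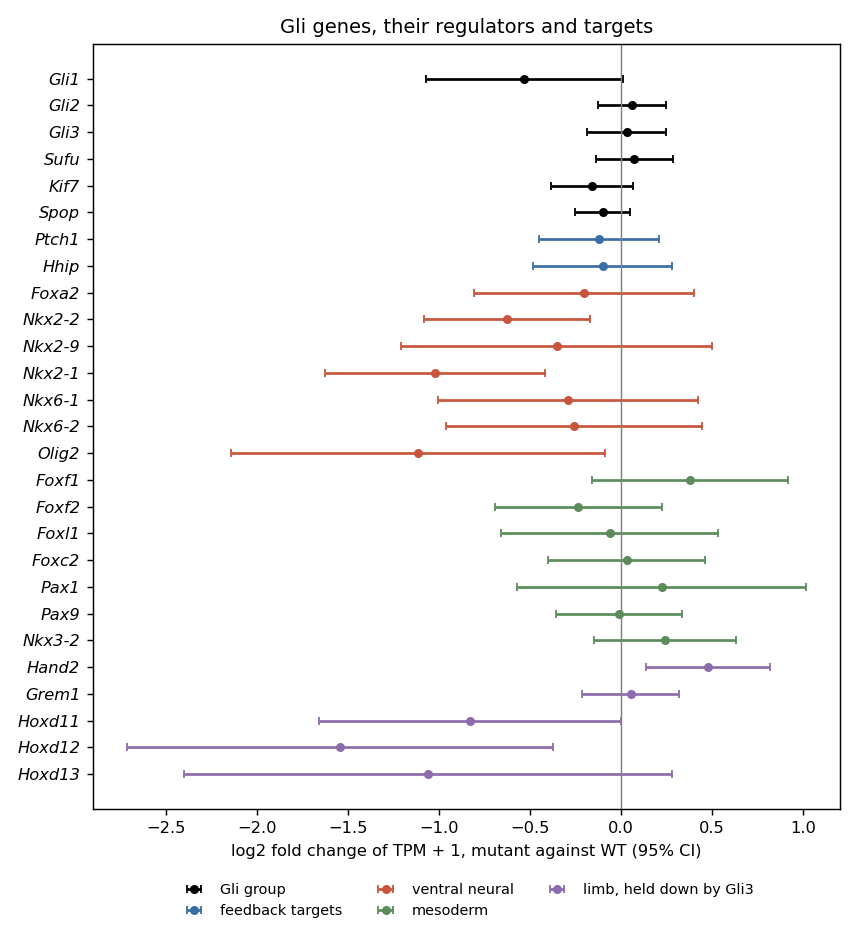
Log2 fold change of TPM + 1, mutant against WT, with its 95% confidence interval (horizontal axis), for the 6 genes (black), feedback targets (blue), ventral neural genes (red), mesoderm genes (green) and limb genes held down by Gli3 (purple). The interval of Gli1 reaches just past 0, those of the other 5 members lie across 0, and none of the genes plotted passed the test over all genes.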

How the data were processed

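The deposited table gives TPM per gene symbol for 8 embryos, 1 column each, matched by name with 0 columns left over. The authors made the TPM values; the build is GRCm38 (mm10) per the submitters' processing notes, and aligner, counting program, annotation and strand setting were not given in the sources used here. TPM multiplied by merged exon length (GENCODE M21, same build) fell on whole steps, from which read numbers were recovered for 93.6% of the 23993 genes with a value (6.34% with another length), within 0.02 reads plus a small share of the value for large numbers; depth was 60.0 to 61.5 M reads (M, mega) per library. Genes with at least 1 TPM in at least 4 embryos were tested with limma 3.58.1 (R 4.3.3) on log2(TPM + 1), genotype as the only term, with a trend, two-sided, Benjamini-Hochberg adjusted p under 0.05; this scale understates changes of low genes. The fit was tested on simulated data. Exact tests enumerated every assignment, sign or pairing (numpy 2.4.6). Alternatives were other pseudocounts, filters, scalings, weights, covariates, left-out embryos, a replicate block and voom. The members and gene lists were chosen with earlier results of these data known. Named are the 6 members, Smo, all genes of lists of up to 7, up to 4 of the smallest p in longer lists, and the nearest patterns without unnamed loci or mitochondrial genes. The labels' numbers do not pair embryos. A few named genes are left unreported, though counts over lists and pairs include them.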

Additional observations from a re-analysis of the deposited data

Results flagged for a closer look

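In a group of 4 embryos, 1 embryo stood far from the rest (by the gap to its neighbour relative to the group's range) in 6 of 124 groups examined, over 62 genes and ratios; chance gives about 1 in 20. Kif7 was low in WT 4 (17.9 TPM), the rest of WT having 20.8 to 21.0 TPM. Spop was high in mutant 2 (100.7 TPM), the rest of the mutants having 85.7 to 87.2 TPM. Hhip was low in WT 1 (2.45 TPM), where the rest had 3.20 to 3.25 TPM. Nkx2-1 in WT 2 was at 9.89 TPM, against 5.62 to 6.07 TPM. Hoxd11 in WT 1 was at 14.6 TPM, against 8.67 to 9.58 TPM. Sufu relative to Gli3 in WT 1 was 0.753, against 0.805 to 0.809. Gli1 in mutant 3 was not among them, because mutants 1 and 4 were spread between it and mutant 2.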

How the results depend on the processing

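None of the 6 genes passed the threshold under any of 20 alternatives. Gli1 stayed lower in mutants in all 20 (log2 fold change -0.71 to -0.13; adjusted p 0.106 to 0.606), as did Kif7 (-0.21 to -0.08) and Spop (-0.16 to -0.05), and Gli2 stayed higher (0.00046 to 0.12). With 1 embryo left out, Gli3 ran from -0.052 (without mutant 2, and -0.0021 without WT 4) to 0.11. Sufu ran from -0.0051 (without mutant 4) to 0.14. The values with all embryos lie near 0, and the cause of these turns was not tested. The count of genes called over the whole table was 0 in 18 of 20 alternatives, 0 to 1 with 1 embryo left out (1 without mutant 2) and 3 without mutants 3 and 4; the cause was not tested. Of the correlations, 1 pair passed with all embryos and 0 without the 2 embryos farthest from the median, where fewer samples were tested. With the replicate block, Gli1 was at -0.53 (adjusted p = 0.342) and no call changed. Correlations between WT and mutant embryos of the same number were -0.062, 0.040, -0.19 and -0.25 after centring, and 0 of 8 embryos correlated best with its own number. The levels kept their order in WT and in mutants. With 4 embryos a group and no litter known, differences of the size seen for Gli2, Gli3 and Sufu did not pass, and transcript levels do not show the activator or repressor forms of Gli proteins.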
